A study of Mus musculus with 4 samples.

Results

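Mitochondrial ribosomal proteins are encoded in the nucleus, made on cytosolic ribosomes and imported into mitochondria, where they assemble with ribosomal RNA of the mitochondrial genome. The large subunit (gene symbols starting with Mrpl) joins amino acids and holds the exit tunnel, and the small subunit (Mrps) binds and decodes the messenger RNA. This ribosome makes the few membrane proteins of the oxidative phosphorylation chain that mitochondrial DNA encodes. Some of its proteins have counterparts in bacterial ribosomes and others exist in mitochondria only.

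The members were all genes whose name on the array was Mrpl or Mrps followed by a digit. There were 76 of them among 30175 gene names, 47 of the large and 29 of the small subunit by symbol, and they were covered by 106 of 39429 probes. A gene was read from its brightest probe. By the scanner's own flag all 76 were well above background on each of the 4 arrays.

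The arrays carried RNA of NIH-3T3:Per2-Luc cells, a mouse fibroblast line in which the *Per2* promoter drives luciferase. The control cells were given fresh medium without H2O2 (0 mM) and are labelled 4 h. The other cells received a pulse of critical oxidative stress (cOS), 5 mM H2O2 for 10 min, and were taken 4 h, 20 h or 32 h after it. Each condition was 1 sample on 1 array, all comparisons with the control share that array, and no untreated array of the later hours was used here. Nothing could therefore be tested between conditions. Values are log2 signals scaled to the 75th percentile of the array, and differences are log2 ratios. The error given with a ratio is the scanner's own error of the spots, about 10.0% of the signal on each array, and it does not cover differences between cultures. In RNA of a whole culture, fewer cells of a type and less RNA per cell cannot be told apart.

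All 10 fibroblast markers on the list were well above background on every array, and none of the 3 muscle markers was on any. Of the 14 markers of epithelium, blood, endothelium and neurons, between 5 and 8 passed the flag on an array. The 4 h array stood apart from the rest. Over all genes the standard deviation of the log2 ratio to the control was 0.78 at 4 h, against 0.39 at 20 h and 0.39 at 32 h. The 75th percentile of the 4 h array lay -0.28 from that of the control before scaling, while its median lay 0.080 from it, so the zero of the 4 h ratios depends on the scaling. For this reason the members are also given relative to the median of all genes, which does not depend on a constant per array.

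At 4 h after the pulse, transcripts of the mitochondrial ribosome lay low as a group. Their median log2 ratio was -0.24, against 0.17 for the 15806 genes measured on both arrays, a difference of -0.41. 56 of the 76 members (73.7%) lay below the median of all genes. 30 (39.5%) lay below the 25th percentile of all genes and 5 (6.58%) above the 75th. The members had a standard deviation of 0.54 over genes and an interquartile range of 0.74, from -0.55 to 0.19, while all genes had 0.78 and 0.84. With the 75th percentile as zero, 52 members were lower than in the control and 24 higher. With the spike-in RNAs as zero these counts were 67 and 9, and with the array median as zero 64 and 12.

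2 members, Mrpl55 and Mrpl40, were at least 2-fold lower at 4 h, where 8.14% of all measured genes were. None was at least 2-fold higher, where 8.25% of all genes were. The members' shift was therefore spread over many genes of less than 2-fold difference. This count depends on the zero. With the array median as zero 16 members (21.1%) were at least 2-fold lower, beside 15.2% of all genes. With the spike-in RNAs it was 17 members (22.4%) beside 16.4% of all genes.

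**Figure D1:**
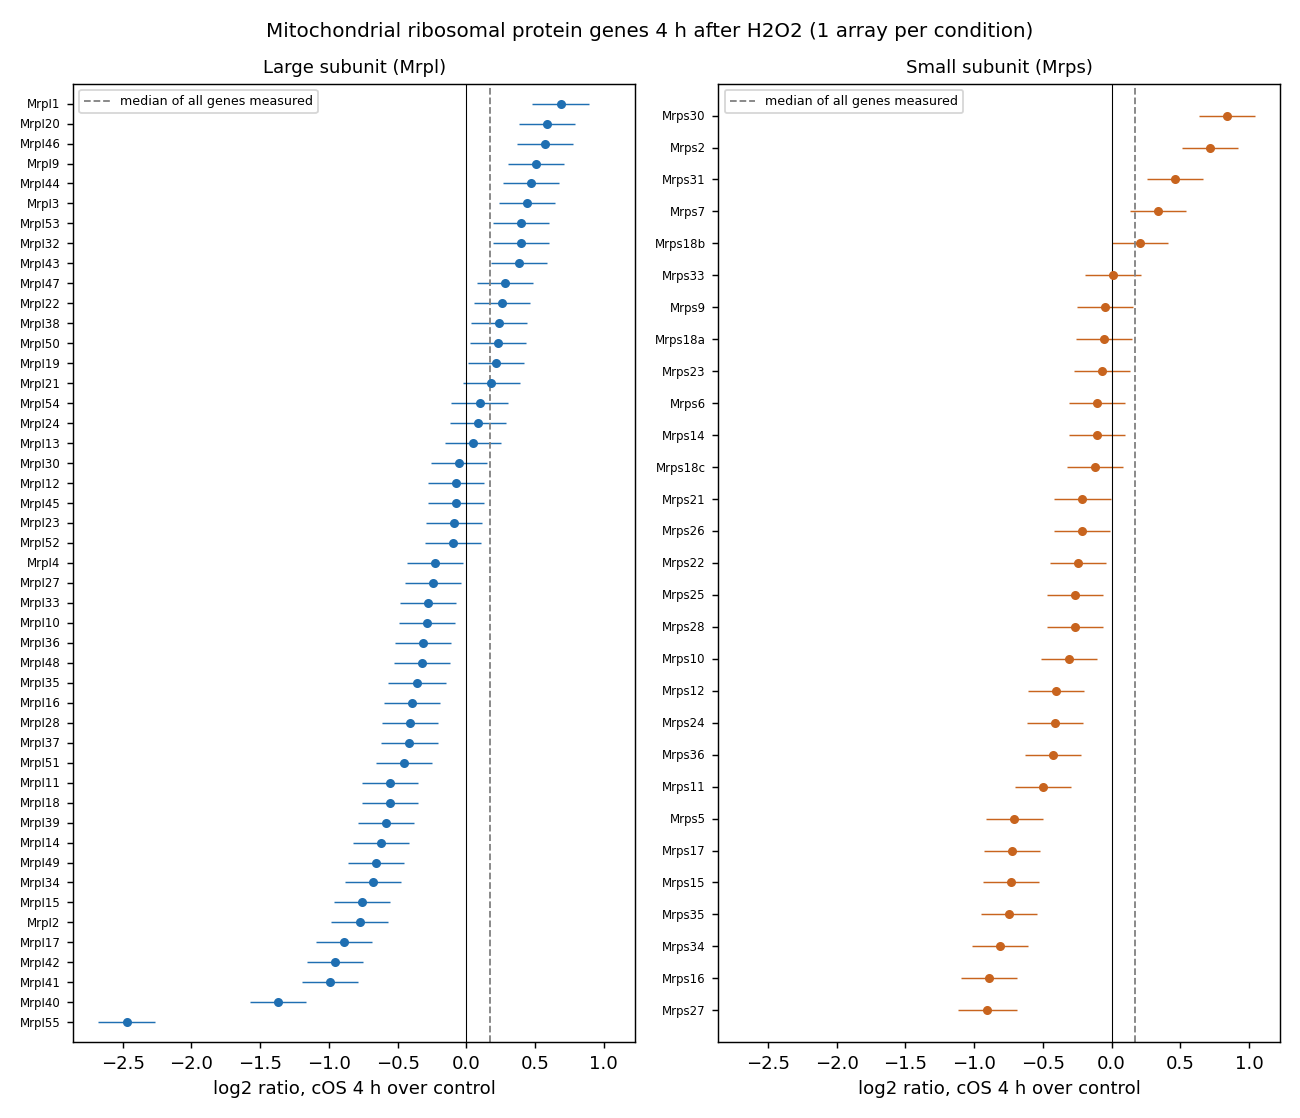
Log2 ratio of each mitochondrial ribosomal protein gene at 4 h over the control (x axis), genes of the large subunit left and of the small subunit right, ordered by value; bars are the scanner's spot error, the solid line is 0 and the dashed line is the median of all measured genes (0.17). Both subunits spread from below -0.8 to above 0.6, 56 of the 76 genes lie left of the dashed line, and Mrpl55 (-2.47) and Mrpl40 (-1.37) lie apart at the bottom left.

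Mrpl55, a protein of the large subunit, had a scaled log2 signal of 2.26 in the control, -0.21 at 4 h, 2.32 at 20 h and 2.33 at 32 h. Its log2 ratio at 4 h was -2.47 ± 0.20 (spot error), a 5.55-fold lower signal, while the other 3 arrays lay within 0.07 of each other. The gene has 1 probe on the array, at chr11:59019327-59019386 of mm9, and the first 30 of its 60 bases are given as deposited because the lowest value of the group rests on it alone.
Mrpl55 probe: accagggacattttgtaaggatggagggca

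Mrpl40 sits in the central protuberance, the part of the large subunit that faces the small one. Its signal was 2.74 in the control, 1.36 at 4 h, 2.67 at 20 h and 2.61 at 32 h. This gave a log2 ratio of -1.37 ± 0.20 at 4 h, 2.59-fold lower, and -0.06 and -0.13 at the later hours. Its other probe, which overlaps the first on chromosome 16, gave -1.40 at 4 h. In both genes the 4 h array was the low one and the later arrays stood near the control.

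The next genes lay just short of 2-fold. Mrpl41, a mitochondria-specific protein of the large subunit, had signals of 3.03, 2.04, 3.1 and 3.03 in the control, 4 h, 20 h and 32 h arrays, a log2 ratio of -0.99 ± 0.20 at 4 h. Mrpl42, another such protein, had 0.91, -0.04, 0.90 and 0.82, a ratio of -0.95 ± 0.20. Mrps16, whose counterpart is bS16 of bacteria, had 3.35, 2.46, 3.30 and 3.20, a ratio of -0.89 ± 0.20. In each of these the 4 h signal was the lowest and the other 3 arrays were close together.

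Mrps27, an RNA-binding protein of the small subunit with pentatricopeptide repeats, differed from them. Its signal was -1.73 in the control, -2.64 at 4 h, -2.16 at 20 h and -2.11 at 32 h. The log2 ratio was -0.91 ± 0.22 at 4 h, and it was also the lowest of all members at 20 h (-0.43) and at 32 h (-0.38). The 3 arrays of pulsed cells were thus all below the control.

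A smaller set of members lay high at 4 h. Mrps30 had signals of 2.08, 2.92, 2.10 and 2.04 in the control, 4 h, 20 h and 32 h arrays, a log2 ratio of 0.84 ± 0.20. Despite its symbol, the protein belongs to the large subunit of the mammalian ribosome. Mrps2, the counterpart of bacterial uS2, had 1.06, 1.77, 0.82 and 0.78, a ratio of 0.72 ± 0.20 at 4 h with values of -0.24 and -0.27 at the later hours. Mrpl1, which forms the stalk next to the tRNA exit site, had -0.74, -0.05, -0.53 and -0.57, a ratio of 0.69 ± 0.21. In all 3 genes the 4 h array was the highest of the 4.

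Mrpl20, which binds ribosomal RNA in the large subunit, had a ratio of 0.59 at 4 h, Mrpl46 of the central protuberance 0.57 and Mrpl9 0.50. These values lay above the median of all genes (0.17) by more than the spot error of 0.20. All 6 of these high genes kept a positive ratio under the 5 other scalings, with lowest values between 0.10 (Mrpl9) and 0.44 (Mrps30). By contrast, the ratio of Mrpl54 (0.10) was negative under all 5, and those of Mrpl38 (0.24) and Mrpl47 (0.28) under 3 and that of Mrps18b (0.21) under 4 of them.

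Grouped by symbol, the medians of large and small subunits were close at 4 h. The median log2 ratio was -0.23 over the 47 large-subunit genes and -0.25 over the 29 small-subunit genes, a difference of 0.017. The large subunit spread more, with a standard deviation of 0.59 against 0.45 and an interquartile range of 0.79 against 0.44. 32 of 47 large-subunit genes (68.1%) and 24 of 29 small-subunit genes (82.8%) lay below the median of all genes. Grouped by where the proteins sit, with Mrps30 and Mrps18a in the large subunit and Mrps36 left out as a subunit of the alpha-ketoglutarate dehydrogenase complex, the medians were -0.10 over 49 genes and -0.26 over 26, a difference of 0.16. The 2 genes added to the large subunit, at 0.84 (Mrps30) and -0.05 (Mrps18a), both lay above its median. Members with a counterpart in bacteria (47 genes) and mitochondria-specific ones (28 genes) had medians of -0.23 and -0.23.

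Low and high values were mixed within parts of the ribosome. Of the genes whose proteins reach towards the site of peptide bond formation, Mrpl2 had a log2 ratio of -0.78 at 4 h, Mrpl16 -0.39, Mrpl27 -0.24 and Mrpl3 0.44. Along the exit tunnel and around its mouth Mrpl4 had -0.23, Mrpl45, which anchors the ribosome to the inner membrane, had -0.08, Mrpl23 -0.09, Mrpl24 0.08, Mrpl22 0.26 and Mrpl47 0.28. The stalk that recruits translation factors is built on Mrpl11 (-0.55), Mrpl10 (-0.29) and Mrpl12 (-0.07). At the decoding site of the small subunit Mrps12 had -0.40, and along the path of the messenger RNA Mrps24 had -0.41 and Mrps5 -0.71. Among other genes of the small subunit, Mrps2 (0.72), Mrps31 (0.46) and Mrps7 (0.34) lay above the control. These genes were picked by role with the values known, so the grouping is a description.

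At the later hours the group was close to the control. The median log2 ratio of the members was -0.005 at 20 h, against -0.001 over 15782 genes, with a standard deviation of 0.16 over members and 0.39 over all genes. None of the 76 was at least 2-fold lower, where 2.18% of all genes were, and none at least 2-fold higher, where 0.729% were. Mrps27 (-0.43), Mrps12 (-0.34) and Mrps18b (-0.33) were lowest, and Mrpl34 (0.38), Mrps21 (0.35) and Mrps14 (0.24) highest. The subunit medians were -0.002 (large) and -0.03 (small), a difference of 0.026.

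At 32 h the median was -0.06 against -0.0006 over 15451 genes, and 53 of 76 members lay below the median of all genes. None was at least 2-fold lower (1.62% of all genes) or at least 2-fold higher (1.08%). Mrps27 (-0.38), Mrpl12 (-0.36), the factor-recruiting stalk protein, and Mrpl15 (-0.34) were lowest, and Mrpl34 (0.29), Mrps21 (0.26) and Mrpl38 (0.21) highest. The subunit medians were -0.06 and -0.08, a difference of 0.019. More than their spot error from the control were 60 members (78.9%) at 4 h, 15 (19.7%) at 20 h and 16 (21.1%) at 32 h, against 76.1%, 43.3% and 44.1% of all genes.

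**Figure D2:**
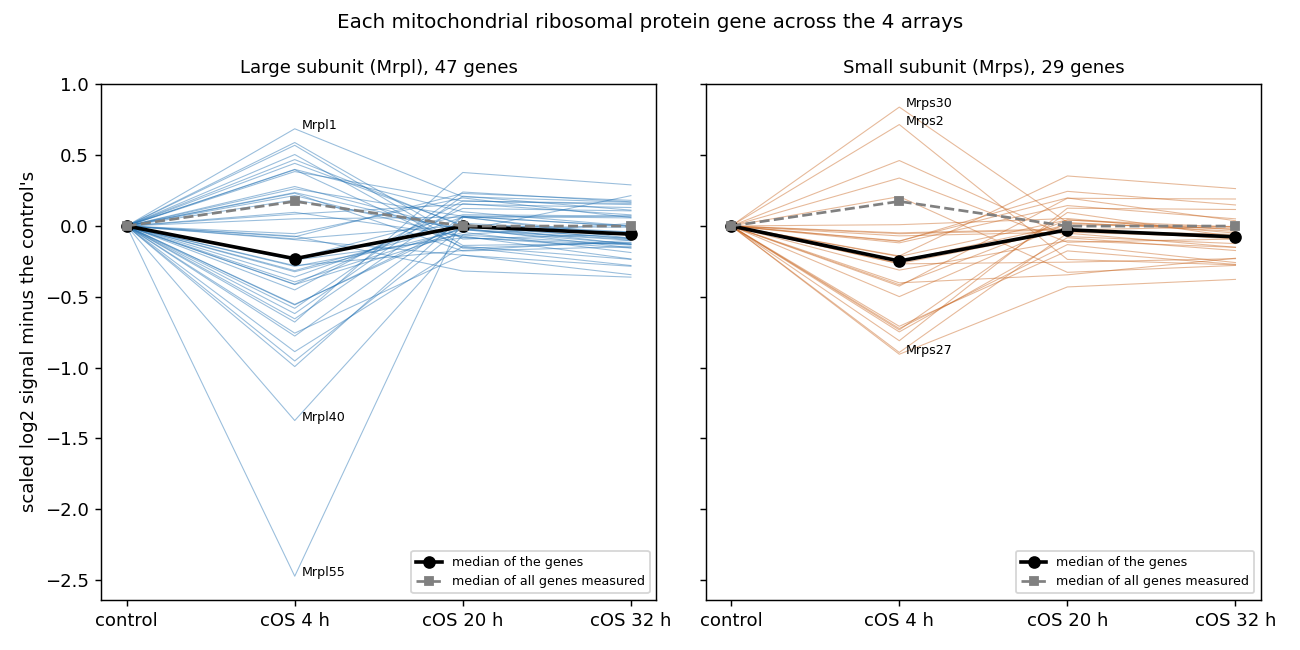
Scaled log2 signal of each gene minus its control value (y axis) on the 4 arrays (x axis), large subunit left and small subunit right; thin lines are genes, the black line is their median and the dashed grey line the median of all measured genes. The lines fan out at 4 h, where the black medians (-0.23 and -0.25) fall below the grey one (0.17), and lie close to 0 at 20 h and 32 h.

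Set against each other, the 20 h and 32 h arrays gave a median of 0.06 for the members and 0.005 for all genes. 62 of the 76 members (81.6%) were slightly higher at 20 h, against 51.5% of all genes. Among lists described below, the share was 82.5% for oxidative phosphorylation subunits and 81.25% for mitochondrial translation factors. It was 100% for mitochondrial ribosomal proteins under other symbols, 66.7% for mitochondrial tRNA synthetases and 63.0% for assembly factors. Genes of mitochondrial DNA expression and regulators had 55.6%, and cytosolic ribosomal proteins 39.5%. None of the 76 members was at least 2-fold lower at 20 h than at 32 h (0.454% of 15643 genes were) or at least 2-fold higher (0.16%). Mrpl38, of the large subunit, was the lowest at -0.25 and Mrps15, the counterpart of uS15, the highest at 0.17. Mrpl38 had signals of 0.91, 1.15, 0.88 and 1.13 in the control, 4 h, 20 h and 32 h arrays, so the control and 20 h arrays were low and the other pair high. It was the only member whose 20 h and 32 h signals differed by more than the spot error (1.32% of members, against 16.9% of all genes).

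The 4 h array held the lowest of the 4 signals for 47 members (61.8%), against 33.4% of the 15274 genes well above background on all arrays. It held the highest for 21 members (27.6%), against 51.4% of those genes. In the small subunit 21 of 29 genes were lowest there and 5 highest, and in the large subunit 26 of 47 and 16. Most remaining members had their highest signal in the control (24) or at 20 h (29). Across the 76 members Spearman's rho of the 4 h ratio was 0.06 with gene span, -0.02 with probe GC content and -0.03 with the control signal, given as descriptions since all points share the same pair of arrays.

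3 members were printed on the array in 10 spots each, which gives an error between spots. Mrps35, of the small subunit, had a 4 h ratio of -0.75 with a standard error of 0.023 over its 10 spots. Mrpl34, the counterpart of bL34, had -0.68 ± 0.031 (SE) at 4 h, 0.38 ± 0.028 at 20 h and 0.29 ± 0.031 at 32 h. Mrpl50, of the large subunit, had 0.23 ± 0.017 at 4 h and -0.18 ± 0.018 at 20 h. The standard deviation between spots, carried over to the 4 h ratio, was 0.073 for Mrps35, 0.098 for Mrpl34 and 0.055 for Mrpl50. Each was below the scanner error of 0.20, which is not divided by the number of spots. None of these errors covers a second culture.

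26 of the 76 genes had more than 1 probe. For 24 genes at least 2 probes were measured at 4 h, and their ratios differed by a median of 0.11, against 0.25 over 3688 such genes of the whole array. The probes of Mrpl40 differed by less than 0.03 and those of Mrps17 by about 0.01. 3 genes (12.5%, against 12.0% of all such genes) had probes that differed by 1 or more, namely Mrpl41, Mrpl39 and Mrpl47. At 20 h and 32 h no member had probes that far apart.

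**Figure D3:**
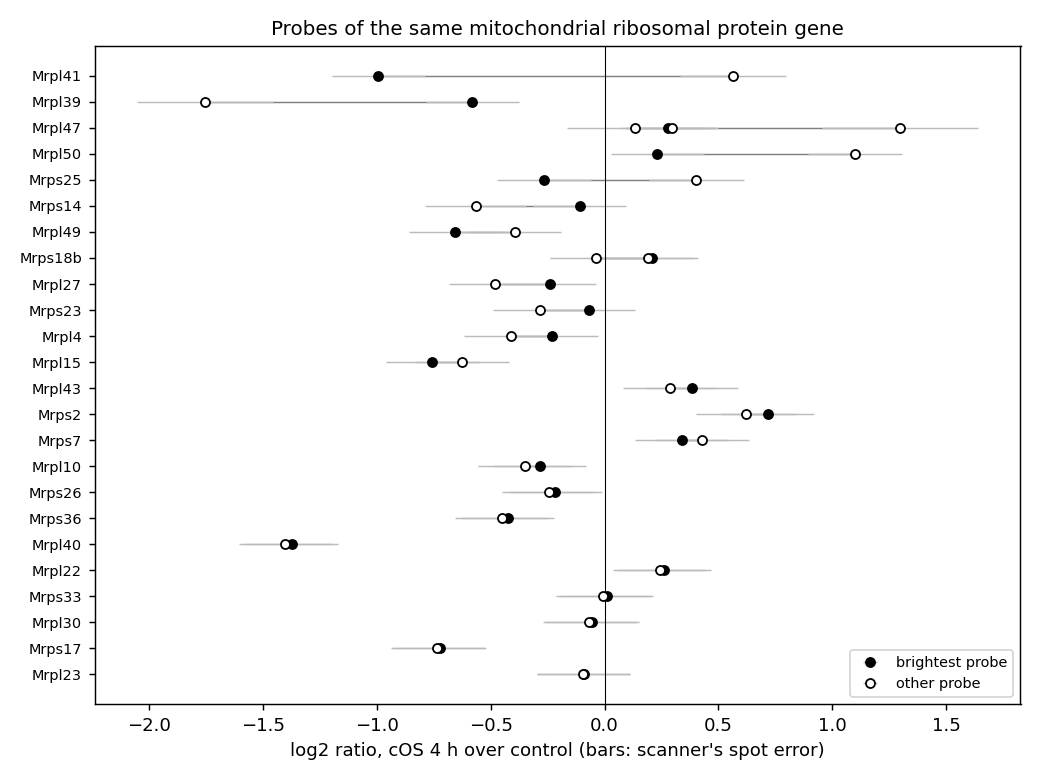
Log2 ratio at 4 h over the control (x axis) for each measured probe of the 24 genes with at least 2; filled points are the brightest probe of the gene, open points its other probes, bars the scanner's spot error. Most pairs overlap (median distance 0.11), and Mrpl41, Mrpl39 and Mrpl47 at the top are more than 1 apart.

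Mrpl41 is the clearest case. The brightest probe, at chr2:24829696-24829755 of mm9, gave -0.99 at 4 h, and the other, at chr2:24828035-24828094, gave 0.56. The signals of this other probe were -3.04, -2.48, -2.95 and -2.97 in the control, 4 h, 20 h and 32 h arrays, so here 4 h was the highest array. The first 30 bases of both are printed because the sign of the Mrpl41 value depends on the probe.
Mrpl41 brightest probe: gccaaaagtttgtctacaaagtggagacag
Mrpl41 other probe: aaaggtggcacacagctgtctgtaactctt

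For Mrpl39, a large-subunit protein, the probes gave -0.58 and -1.75 at 4 h, lower than the control by either. For Mrpl47 the brightest probe gave 0.28, 2 others 0.29 and 0.13, and a last one, which was well above background on 3 arrays, 1.30. Mrpl9, Mrps14 and Mrpl21 had further probes that were below background on some or all arrays.

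Many mitochondrial ribosomal protein genes lie head to head with a neighbour on the other strand. Whether the stretch between their starts serves both genes was not tested. By RefSeq gene starts on GRCm38.p6, 67 of the 76 members had an entry. 23 of the 67 (34.3%) had a gene on the other strand starting within 1000 bases, against 8.48% of 17492 coding genes. Within 250 bases it was 18 (26.9%) against 5.89%. The median 4 h ratio of the 23 was -0.40 and that of the other 44 was -0.21. For 22 pairs both genes were measured at 4 h. In 15 the ratios had the same sign, both lower in 9 and both higher in 6, and in 7 the signs differed. These counts depend on the zero and were not repeated under other scalings. With the spike-in RNAs as zero, 9 of all 76 members were higher at 4 h, in place of 24. Mrpl47 and Mrps18b, each in a pair counted as both higher, were negative under 3 and 4 of the 5 other scalings. No share of same signs is given for other genes. In 6 pairs the genes were 1 or more apart, which does not depend on a constant per array.

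Mrps11 and Mrpl46 are both members, 1 of each subunit, with starts 42 bases apart on chromosome 7. Mrps11 had signals of 0.93, 0.43, 0.95 and 0.91 in the control, 4 h, 20 h and 32 h arrays, and Mrpl46 had 0.99, 1.56, 0.85 and 0.87. At 4 h the former was lower (-0.50) and the latter higher (0.57), a difference of 1.07 across a stretch of 103 bases that includes 30 bases past each start. The stretch, at chr7:78783059-78783161 of GRCm38 on the plus strand, held none of the motifs described below. A YY1 match lies just outside it, past the start of Mrpl46.
Mrpl46 to Mrps11: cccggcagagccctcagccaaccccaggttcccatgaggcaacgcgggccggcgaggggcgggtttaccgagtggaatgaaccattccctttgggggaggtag

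Mrpl40 and Hira, a histone chaperone gene, start 113 bases apart on chromosome 16 and had ratios of -1.37 and 0.33 at 4 h. Mrpl49 of the large subunit starts 192 bases from Fau, which encodes a protein of the cytosolic ribosome, and the ratios were -0.66 and 0.39. Mrpl18, which binds 5S rRNA in bacteria, had -0.56 and its neighbour Tcp1, a subunit of the cytosolic chaperonin, 0.64. With the zero used here these were pairs of opposite sign, and the member was the lower gene in each. The regions of the first 2 are printed on the plus strand of GRCm38, at chr16:18876607-18876780 and chr19:6057725-6057977, with capitals on a match to the YY1 motif described below.
Mrpl40 to Hira: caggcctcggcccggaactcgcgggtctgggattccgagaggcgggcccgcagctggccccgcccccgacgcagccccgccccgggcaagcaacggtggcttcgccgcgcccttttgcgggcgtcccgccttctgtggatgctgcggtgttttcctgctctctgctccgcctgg
Mrpl49 to Fau: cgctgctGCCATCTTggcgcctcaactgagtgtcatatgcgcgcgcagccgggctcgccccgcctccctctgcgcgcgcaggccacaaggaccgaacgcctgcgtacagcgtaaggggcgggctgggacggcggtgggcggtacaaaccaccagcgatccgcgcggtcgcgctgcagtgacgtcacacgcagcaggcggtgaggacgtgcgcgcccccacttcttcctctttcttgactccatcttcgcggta

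Other pairs went the same way. Mrps12, of the decoding site, and Sars2, which charges mitochondrial serine tRNA, had ratios of -0.40 and -0.90 at 4 h, -0.34 and -0.31 at 20 h and -0.23 and -0.19 at 32 h, so both were below the control on all 3 arrays. Mrps27 and Ptcd2, another mitochondrial RNA-binding protein, had -0.91 and -0.76 at 4 h. Mrpl43 and Twnk (listed as Peo1), the helicase of mitochondrial DNA, had 0.38 and 0.46, and Mrpl47 and Ndufb5, a complex I subunit, 0.28 and 0.26. In these 4 pairs, picked by role with the values known, both neighbours serve the mitochondrion. With the zero used here both lay on the same side of the control, unlike Mrps11 and Mrpl46. The region of Mrps12 and Sars2 is at chr7:28741791-28741998 of GRCm38, again on the plus strand.
Mrps12 to Sars2: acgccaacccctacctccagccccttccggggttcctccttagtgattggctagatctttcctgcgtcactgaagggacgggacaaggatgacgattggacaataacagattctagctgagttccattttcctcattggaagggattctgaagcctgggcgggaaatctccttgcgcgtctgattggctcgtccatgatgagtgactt

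**Figure D4:**
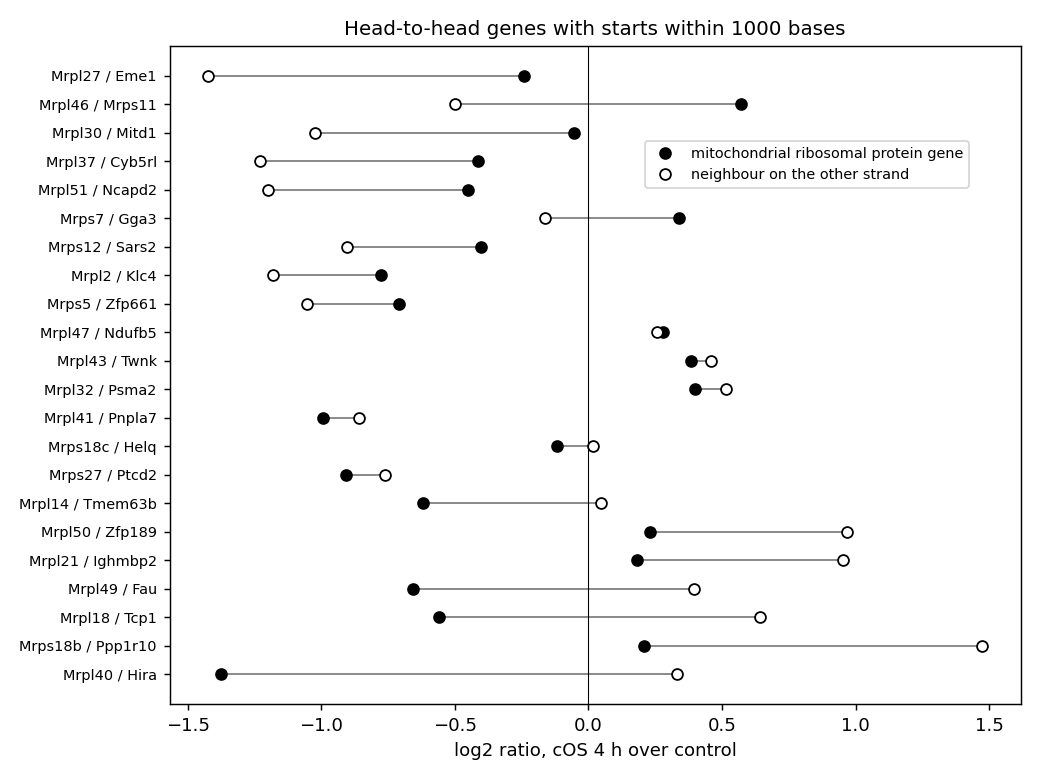
Log2 ratio at 4 h over the control (x axis) of the 22 pairs of head-to-head genes measured on both arrays; filled points are the mitochondrial ribosomal protein gene, open points its neighbour, and pairs are ordered by their difference. The sign is shared in 15 pairs, a count that depends on the zero. Mrpl40 with Hira at the bottom is among the 6 pairs that are 1 or more apart. For Mrpl46 the neighbour Mrps11 is also a member.

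Promoters of the members, 250 bases before to 50 after the RefSeq start, were searched on both strands for 5 short motifs of factors known for nuclear genes of mitochondria or for oxidative stress. The YY1 motif AAGATGGC was in 12 of 67 (17.9%), against 3.57% of all promoters. The ETS motif CCGGAAGT, bound by GABP, was in 12 (17.9%) against 5.69%, and the NRF-1 motif GCATGCGC in 8 (11.9%) against 3.94%. The E-box CACGTG was in 5 (7.46%) against 8.91%, and the core of the antioxidant response element, TGACNNNGC, in 13 (19.4%) against 14.8%. None of these motifs contains another.

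The 12 members with the YY1 motif had a median 4 h ratio of -0.41, and those without it -0.12. With the ETS motif the medians were -0.24 and -0.21, with the NRF-1 motif -0.04 and -0.24, with the E-box -0.32 and -0.23, and with the antioxidant response element -0.31 and -0.23. The ranges of members with and without each motif overlapped, and a match is a description of letters, not of binding. 4 of the YY1 matches are printed in 30 bases on the strand of the gene, with the match in capitals. They read AAGATGGC just past the start of Mrpl42 (chr10:95501904-95501933, minus strand of GRCm38), Mrps27 (chr13:99344789-99344818, plus strand) and Mrpl49 (chr19:6057721-6057750, minus strand). The reverse complement lies upstream of Mrps11 (chr7:78783013-78783042, plus strand).
Mrpl42: cagattgaagcAAGATGGCgagcgcgcggt
Mrps27: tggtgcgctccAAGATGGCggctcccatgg
Mrpl49: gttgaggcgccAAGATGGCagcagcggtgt
Mrps11: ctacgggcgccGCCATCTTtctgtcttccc

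The genes around the mitochondrial ribosome were read in the same way. Of 7 mitochondrial ribosomal proteins that carry other symbols, 6 lay below the median of all genes at 4 h, with a list median of -0.26, and none was past 2-fold. Gadd45gip1 was lowest at -0.95, followed by Ict1, a peptidyl-tRNA hydrolase built into the large subunit, at -0.72, and Mrp63 at -0.51. Dap3, which binds GTP in the small subunit, had -0.26 and Ptcd3, an RNA-binding protein of the small subunit, 0.83.

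The mitochondrial tRNA synthetases and their amidotransferase partners lay lower than the ribosomal proteins. The median over 18 measured genes was -0.89, 7 (38.9%) were at least 2-fold lower and 1 (5.56%) at least 2-fold higher, beside 8.14% and 8.25% of all genes. Fars2, which charges phenylalanine tRNA, had a ratio of -1.46 ± 0.20, while Mars2, for methionine, had 1.59 ± 0.24. The scaled log2 signal of Mars2 was -3.21 in the control and -1.62 at 4 h, so the size of its ratio rests on a faint signal. At 20 h and 32 h the medians of this list were -0.01 and 0.01 and none of its measured genes was past 2-fold.

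Factors that assemble the ribosome or modify its RNA had a median of -0.02 over 27 measured genes, and 5 (18.5%) were at least 2-fold lower and none higher, beside the same 8.14% and 8.25%. Lowest were Rpusd3, of the pseudouridine synthase family, at -3.21 ± 0.23, Rmnd1 at -1.94 and Tfb1m, which methylates 12S rRNA, at -1.77. The scaled log2 signal of Rpusd3 was -0.15 in the control and -3.36 at 4 h, so the size of its ratio rests on a faint signal. Translation factors had a median of -0.08 over 16 genes, with 2 (12.5%) at least 2-fold lower and 1 (6.25%) higher. Mtrf1, of the release factor family, had -3.64 ± 0.32 at 4 h, -2.29 at 20 h and -2.37 at 32 h, and Mrrf, the ribosome recycling factor, 1.15 ± 0.28 at 4 h. The scaled log2 signal of Mtrf1 was -0.87 in the control and -4.51 at 4 h, and that of Mrrf -4.05 and -2.90. The size of both ratios thus rests on a faint signal, though each passed the flag. The single control array is shared by the 3 values of Mtrf1.

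Genes that express mitochondrial DNA or regulate nuclear genes of mitochondria had a median above that of all genes, but not all were high. Of the 17 measured, 12 (70.6%) were above 0, against 60.5% of all genes. 6 (35.3%) lay below the median of all genes, with Esrra lowest at -0.37. Their median was 0.36 over 17 measured genes, with 3 (17.6%) at least 2-fold higher, where 8.25% of all genes were, and none of the measured lower. Ppargc1b, a coactivator too, was not well above background at 4 h, which gave only a bound of at most -1.39, and it is not among the 17. The 3 higher genes were Gabpb1, a subunit of GABP, at 1.20, Ppargc1a, a coactivator of mitochondrial genes, at 1.03, and Nrf1, which binds the NRF-1 motif, at 1.02. Yy1 itself had 0.77, Tfb2m 0.81 and Tfam, which packages mitochondrial DNA, 0.36. The ratios of these regulators at 20 h and 32 h were between -0.63 and 0.30.

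The cytosolic ribosomal proteins showed a tighter pattern than the mitochondrial ones. Their 81 measured genes had a median log2 ratio of 0.41 at 4 h with a standard deviation of 0.12, and -0.21 at 20 h and -0.19 at 32 h. The 79 measured oxidative phosphorylation subunits of the nucleus had a median of 0.10 at 4 h with a standard deviation of 0.32. None of these measured genes was past 2-fold at 4 h. The mitochondrial ribosomal proteins, with a median of -0.24 and a standard deviation of 0.54, thus lay lower and spread more on this pair of arrays, a difference that could not be tested with 1 array per condition.

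**Figure D5:**
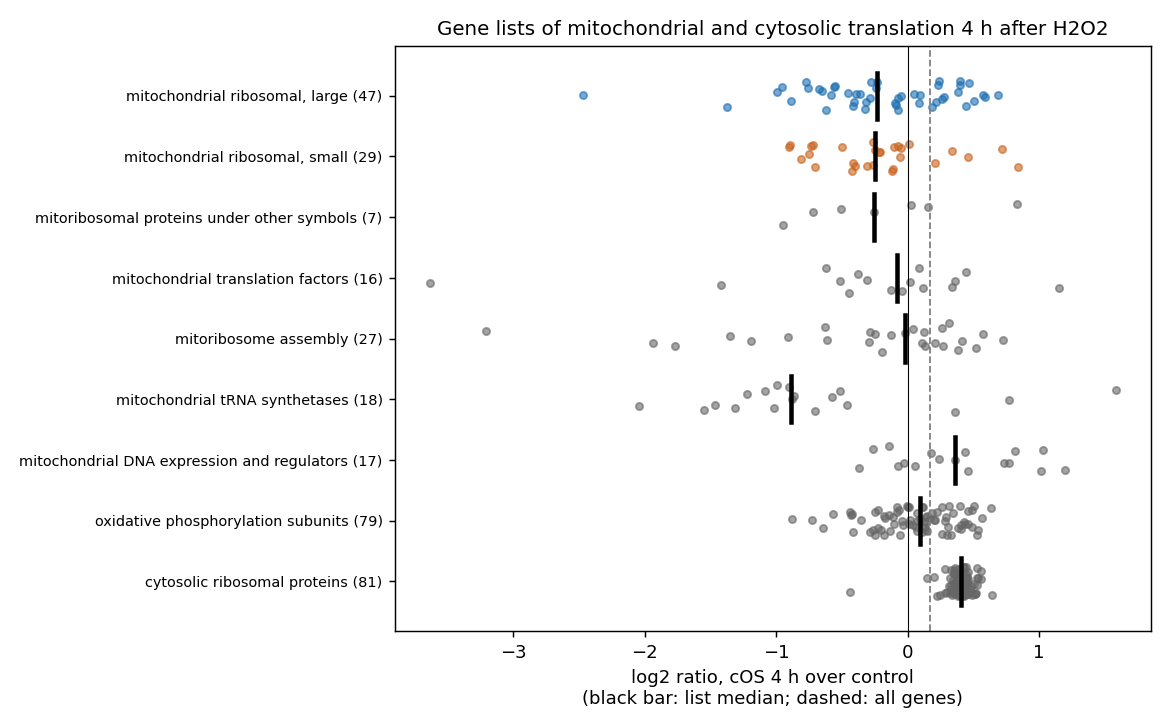
Log2 ratio at 4 h over the control (x axis) of every measured gene in 9 lists (y axis, number of genes in brackets, points spread vertically for visibility); black bars are list medians, the solid line is 0 and the dashed line the median of all measured genes (0.17). Both subunits (medians -0.23 and -0.25) lie left of the dashed line, the tRNA synthetases (-0.89) further left, and the cytosolic ribosomal proteins (0.41) form a narrow group to the right.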

How the data were processed

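RNA of 4 samples was measured by one-color arrays sharing 1 slide, whose number limits the precision. The authors deposited spot intensities of Agilent Feature Extraction 10.7.3.1, background-subtracted and not scaled between arrays, together with other flags per spot and a second table in which these intensities had been divided by an array constant. Here log2 intensities of unflagged spots were averaged per probe, and the array's 75th percentile over all 39429 probes was subtracted. Detection required the flag for signal well above background on 50% or more of a probe's spots. Ratios were measured where both arrays met this and given as bounds otherwise. No member spot was flagged or saturated.

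Named members were those past 2-fold, the 6 highest and 6 lowest at 4 h, the 3 at each end of the other comparisons, those with disagreeing probes and those with a doubtful subunit; other members were named for their role or spots. Members and lists were chosen with earlier results of these data known. Probe positions follow the deposited annotation (mm9); gene starts and promoters are from RefSeq (GRCm38.p6). Python 3.11.15, pandas 2.3.3 and limma 3.58.1 were used. The ratio step was tested on simulated data. Some withheld items are not reported here.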

Additional observations from a re-analysis of the deposited data

Results flagged for a closer look

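7 members had ratios of opposite sign at 4 h and at a later hour, each past its own spot error. The share of all genes that meet this rule was not computed, so the count has no background. All genes were past their spot error more often than members at 20 h (43.3% against 19.7%) and at 32 h (44.1% against 21.1%). Each hour was compared with the same control array, and the difference between hours was not tested. Lower at 4 h and higher later were Mrpl34 (-0.68 at 4 h, 0.38 at 20 h, 0.29 at 32 h), Mrpl14 (-0.62 and 0.21 at 20 h), Mrpl39 (-0.58 and 0.24 at 20 h) and Mrps21 (-0.21, 0.35 and 0.26). Higher at 4 h and lower later were Mrps2 (0.72, -0.24 and -0.27), Mrpl32 (0.40 and -0.28 at 32 h) and Mrps18b (0.21, -0.33 and -0.28). The 4 h value of Mrps18b is negative under 4 of the 5 other scalings, and Mrpl14 and Mrpl32 were not followed through them. The later signs depend on the zero too. With the spike-in RNAs as zero, 8 members were below 0 at 20 h and 17 at 32 h, in place of 40 and 54.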

How the results depend on the processing

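The low position of the members at 4 h, -0.41 relative to all genes, ranged from -0.49 to -0.33 over the alternative runs. In these, 55 to 61 of 75 or 76 members lay below the median of all genes (39 of 50 with genes of 1 probe). Runs that change only a constant per array could not alter this position or this count. These were array medians, spike-in RNAs, no scaling and the 75th percentile of probes well above background on all arrays. The number at least 2-fold lower at 4 h was 2 as reported (2.63% of members beside 8.14% of all genes). It was 16 with array medians (21.1% beside 15.2%), 7 with quantile normalization (9.21% beside 10.2%), 7 with the 75th percentile of probes well above background on all arrays (9.21% beside 10.1%), 17 with spike-in RNAs (22.4% beside 16.4%), 13 without scaling (17.1% beside 13.2%), 1 with genes of 1 probe only (2.0% beside 7.97%), 4 against the mean of the 20 h and 32 h arrays (5.26% beside 9.52%), 17 at 1.5-fold (22.4% beside 16.7%) and 1 at 3-fold (1.32% beside 2.41%). The number higher was 0, and 4 at 1.5-fold (5.26% beside 21.1%). The large-minus-small difference at 4 h was 0.017 as reported and 0.16 by structure. Without a detection filter the members' position at 20 h was 0.17 in place of -0.004. No value of a named gene past 2-fold changed sign. Distances of 500 and 250 bases for head-to-head genes were added after seeing the data. No paired analysis was possible because each condition had 1 array. The causes of these changes were not tested. With 1 array per condition, the culture cannot be told apart from the pulse, and at 20 h and 32 h neither can the hour, since the control is labelled 4 h.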
